A study of Homo sapiens with 20 samples.

Results

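The alpha-globin and beta-globin loci were examined for binding of the cohesin subunits RAD21, SA1 and SA2 in a pair of human cell lines that do not belong to the erythroid lineage. The genes were 8 of the 19970 protein-coding genes of chromosomes 1 to 22 and X in GENCODE 44. They were chosen by name and not by any value in these data, although earlier results of these data were known at the time. HBZ, HBA2 and HBA1 lie on chromosome 16, and HBE1, HBG2, HBG1, HBD and HBB lie on chromosome 11. Each locus ran from the first to the last base of the canonical transcripts of its listed genes, with 100 kb added on either side. On hg38 this gave chr16:52644-277522 for the alpha-globin locus (225 kb) and chr11:5125464-5369945 for the beta-globin locus (244 kb). Peaks of the 6 lists that overlapped by at least 1 bp were joined into sites, and 12 of the 77076 sites of the genome lay in the loci, 7 in the alpha-globin locus and 5 in the beta-globin locus.

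Haemoglobin is built from alpha-like and beta-like globin chains, and both gene clusters are ordered along the chromosome by the stage at which they are used. HBZ and HBE1 encode the embryonic zeta and epsilon chains, HBG1 and HBG2 the fetal gamma chains, HBA1 and HBA2 the alpha chains of fetal and adult life, and HBB and HBD the adult beta and delta chains. In erythroid cells the beta-like genes are driven by the locus control region upstream of HBE1, a cluster of DNase hypersensitive sites, while the enhancers of the alpha-like genes lie far upstream of HBZ, largely within introns of the housekeeping gene NPRL3. The beta-globin cluster sits among olfactory receptor genes. Cohesin is a ring of SMC1, SMC3 and RAD21, bound by either SA1 or SA2, that holds sister chromatids together and forms chromatin loops, and it tends to halt where the zinc finger protein CTCF binds DNA.

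The CHM13 line was derived from a complete hydatidiform mole, a growth of placental tissue with a paternal genome, and the RPE-1 line from retinal pigment epithelium. Both carry hTERT, the telomerase subunit that immortalises them. RAD21, SA1 and SA2 were each precipitated from chromatin in 3 replicates of CHM13 and 2 replicates of RPE-1, and total chromatin served as the input, which made 20 libraries. The labels name no treatment, so the comparison was between lines. RAD21 was recovered with a different antibody in each line, SA1 and SA2 with the same antibodies, and the chromatin was sheared on different instruments. Each cell line and subunit had 1 list of peak positions, with its replicates merged by the authors. The lists hold no peak height and no value per replicate. No spread between replicates could therefore be given, no test was run, and the 95% intervals below cover counting error only. The lists differed in size over chromosomes 1 to 22 and X, with 73739 RAD21, 38153 SA1 and 44374 SA2 peaks in CHM13 and with 14939, 10707 and 6389 in RPE-1. Cell line, read depth, shearing and the number of replicates merged cannot be told apart as sources of that gap, nor, for RAD21, can the antibody. Globin expression was not measured in these files, and the cell type of neither line could be checked from peak positions.

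Reference sequence is shown for the 4 sites that had RAD21 with SA1 or SA2 and were either the nearest such site on a side of the globin genes or lay in the window upstream of them. Each run is 300 bases of the plus strand of hg38 around the centre of the site. Capitals mark letters that match the CTCF core consensus, a 12-letter pattern that CTCF is known to bind, with at most 1 mismatch. The first lies in an NPRL3 intron upstream of HBZ, at chr16:107071-107370, and its match is on the plus strand.
NPRL3 intron site: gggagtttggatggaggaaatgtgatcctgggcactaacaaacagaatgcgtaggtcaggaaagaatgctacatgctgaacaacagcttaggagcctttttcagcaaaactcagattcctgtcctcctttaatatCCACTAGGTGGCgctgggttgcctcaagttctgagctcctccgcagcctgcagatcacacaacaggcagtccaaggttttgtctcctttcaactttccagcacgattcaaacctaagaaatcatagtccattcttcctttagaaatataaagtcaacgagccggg
The next lies downstream of HBA1 and past the end of HBQ1, at chr16:181384-181683, and holds no match.
HBQ1 site: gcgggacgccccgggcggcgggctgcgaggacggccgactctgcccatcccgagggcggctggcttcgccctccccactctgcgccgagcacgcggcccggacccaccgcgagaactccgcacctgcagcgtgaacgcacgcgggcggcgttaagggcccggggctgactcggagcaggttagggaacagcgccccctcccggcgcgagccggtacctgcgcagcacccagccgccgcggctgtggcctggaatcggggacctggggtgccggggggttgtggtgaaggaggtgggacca
The site upstream of HBE1 is at chr11:5291287-5291586, and the capitals are the plus-strand letters of a match on the minus strand.
HBE1 upstream site: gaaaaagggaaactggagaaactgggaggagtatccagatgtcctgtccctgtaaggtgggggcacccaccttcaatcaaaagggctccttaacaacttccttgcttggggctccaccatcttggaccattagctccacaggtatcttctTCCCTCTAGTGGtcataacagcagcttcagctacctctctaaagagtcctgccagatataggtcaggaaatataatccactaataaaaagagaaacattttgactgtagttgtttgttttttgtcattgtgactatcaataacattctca
The site downstream of HBB is at chr11:5204786-5205085, with a match on the plus strand.
HBB downstream site: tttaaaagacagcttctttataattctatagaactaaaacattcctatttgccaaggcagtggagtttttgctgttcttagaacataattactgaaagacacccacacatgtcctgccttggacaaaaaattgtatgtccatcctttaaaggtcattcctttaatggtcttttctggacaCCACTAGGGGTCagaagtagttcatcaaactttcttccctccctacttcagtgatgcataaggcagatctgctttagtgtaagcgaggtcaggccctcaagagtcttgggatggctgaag
The share of G and C was 75.3% at the HBQ1 site, 46.3% at the NPRL3 intron site, 43.3% at the HBE1 upstream site and 40.7% at the HBB downstream site. Over all sites it ran from 46.3% to 75.3% in the alpha-globin locus and from 40.7% to 51.0% in the beta-globin locus. The ranges overlapped only through the NPRL3 intron site shown above. The other alpha sites ran from 61.7% to 75.3%, above every beta site.

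In the alpha-globin locus the cohesin sites lay on both sides of the globin genes and not among them. No list had a peak between the start of HBZ and the end of HBA1, an interval that also holds HBM, the mu globin gene, and the pseudogenes HBZP1 and HBAP1. The interval is 24.9 kb long, and over the genome the lists held 2.19 to 25.3 peaks per Mb. A count of 0, for which the one-sided 95% limit is 3 counts, is not set apart from the genome at that length. Of the 7 sites, 5 lay upstream of HBZ, with their centres at 86.8, 76.3, 55.6, 45.4 and 34.7 kb from its start. The remaining pair lay downstream, at 28.9 and 82.4 kb from the same point.

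Introns of NPRL3, which encodes a subunit of the GATOR1 complex that restrains mTORC1, held 3 of the 7 alpha sites. The first, 55.6 kb upstream of HBZ, had peaks of all 3 subunits in CHM13 and of RAD21 in RPE-1. Its CHM13 RAD21 peak spanned chr16:96678-97413. The second, 45.4 kb upstream, was found in 5 lists and lacked only RPE-1 SA1. Its CHM13 RAD21 peak covered 784 bp (chr16:106829-107612), its RPE-1 RAD21 peak 464 bp and its RPE-1 SA2 peak 296 bp. The third, 34.7 kb upstream and nearest to HBZ, was a RAD21 site in both lines, with a peak of 535 bp in CHM13 and 292 bp in RPE-1 and none of SA1 or SA2. These NPRL3 sites were evenly placed, with 10.2 kb between the first pair of centres and 10.7 kb between the second pair.

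Farther upstream, the site at chr16:65452-66242 lay in an intron of RHBDF1, which encodes an inactive rhomboid protease, and was the only alpha site with a peak in all 6 lists. Between it and NPRL3, an intergenic site 1.91 kb from MPG, the gene of a DNA glycosylase, had CHM13 RAD21 and SA2 but no SA1 and no RPE-1 peak. Downstream of the globin genes, the site at chr16:181134-181934 overlapped the last 46 bp of HBQ1, the theta globin gene, and its centre lay 4.85 kb from the start of HBA1. It carried all 3 subunits in CHM13 and RAD21 in RPE-1. The last site lay 0.214 kb from the start of FAM234A and appeared in the CHM13 RAD21 list only.

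**Figure D1:**
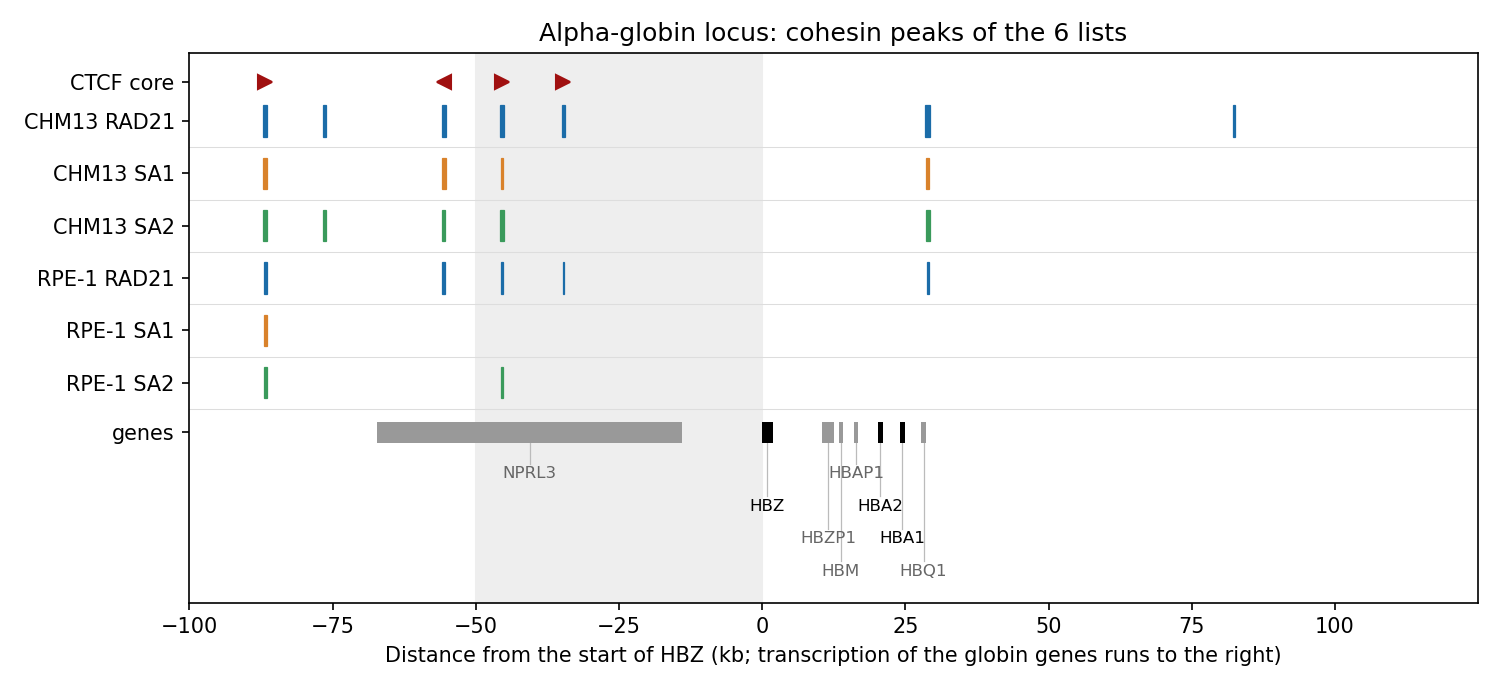
Cohesin peaks of the 6 lists in the alpha-globin locus, drawn to scale against distance in kb from the start of HBZ, with listed genes in black, other genes in grey, the 50 kb upstream window shaded and arrowheads for the strand of each CTCF core match. No bar falls between HBZ and HBA1, and 3 of the 5 bars of RPE-1 RAD21 lie over NPRL3.

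The beta-globin locus held fewer sites, and its genes also lay in an interval without peaks, together with the pseudogene HBBP1 and the non-coding gene BGLT3. The listed genes span 44.5 kb there, and a count of 0 is not set apart from the genome at that length either. Of the 5 sites, 4 were upstream of HBE1, at 97.7, 94.4, 21.5 and 10.9 kb from its start, and 1 was downstream of HBB, with its centre 22.1 kb from the start of HBB. In GENCODE the gene models of HBG2 and HBE1 run for 252 and 237 kb through neighbouring olfactory receptor genes, whereas their canonical transcripts measure 1.59 and 1.60 kb. The 4 upstream sites lay in introns of a further readthrough model of this kind.

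A pair of sites, 86.5 kb apart, flanked the beta-like genes in all 6 lists. The upstream one, chr11:5291023-5291851, lay 21.5 kb before HBE1 and overlapped the olfactory receptor pseudogene OR51AB1P by 91 bp. In CHM13 its RAD21, SA1 and SA2 peaks measured 806, 635 and 740 bp, and in RPE-1 456, 310 and 327 bp. The downstream one, chr11:5204468-5205404, lay 4.25 kb from OR51V1, the nearest protein-coding gene, and overlapped a long non-coding RNA gene by 364 bp. Its peaks measured 937, 666 and 825 bp in CHM13 and 462, 382 and 279 bp in RPE-1. At both sites every RPE-1 peak was narrower than the CHM13 peak of its subunit and lay wholly inside it.

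The other beta sites were seen in CHM13 alone. The site 10.9 kb upstream of HBE1, the nearest to any beta-like gene start, was a single RAD21 peak of 455 bp. The distal pair lay 3.22 kb apart in the olfactory receptor cluster, where OR51B6 was the nearest protein-coding gene at 11.9 and 15.2 kb once the readthrough models were left out. The nearer of the pair had RAD21 and SA2, and the farther had all 3 subunits and the widest peak of either locus, a RAD21 peak of 1255 bp. Of the 27 genes in the beta-globin locus, 12 were olfactory receptor genes or pseudogenes, and OR51AB1P was the only one that a site overlapped. Among the other genes, with the readthrough model left out, only the long non-coding RNA gene at the downstream site was overlapped. Overlaps were thus few for either kind of gene.

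**Figure D2:**
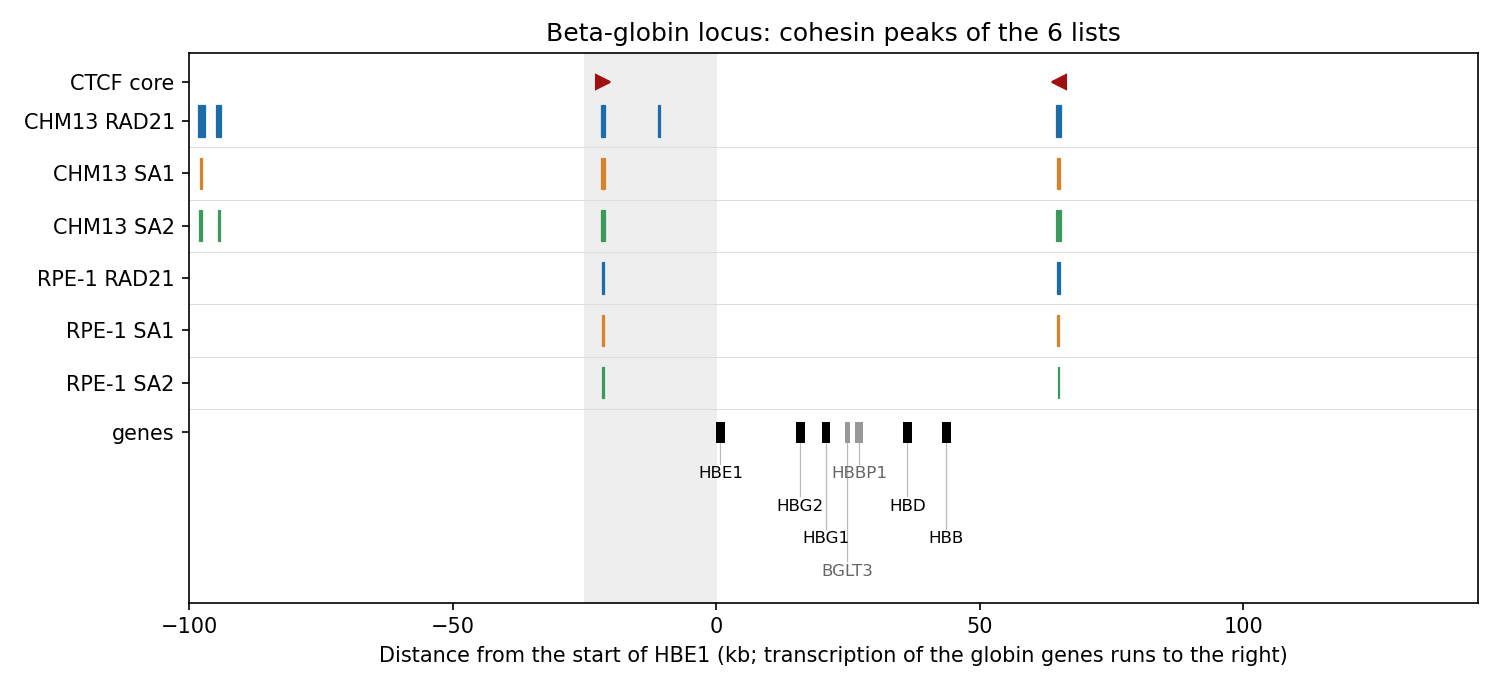
Cohesin peaks of the 6 lists in the beta-globin locus, drawn to scale against distance in kb from the start of HBE1, with listed genes in black, other genes in grey, the 25 kb upstream window shaded and arrowheads for the strand of each CTCF core match. All 6 lists have a bar 21.5 kb upstream and 65.0 kb downstream of the start of HBE1, and the arrowheads at those positions face each other.

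The edge of the beta-globin locus fell close to further peaks. A site at chr11:5369597-5370461 had its centre 0.0835 kb past the upstream edge and was found in 5 lists, with SA1 and SA2 but no RAD21 in RPE-1. On the other side, a site with the 3 CHM13 subunits lay 1.22 kb past the edge. The nearest site outside the alpha-globin locus was 29.8 kb away and had the CHM13 subunits and RPE-1 RAD21.

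Windows upstream of the most upstream gene stood in for the control regions, since the gene annotation used here does not mark their elements. In the 25 kb upstream of HBE1, which holds the locus control region, CHM13 RAD21 had 2 peaks and each other list had 1. In the 50 kb upstream of HBZ, RAD21 had 2 peaks in both lines, CHM13 SA1, CHM13 SA2 and RPE-1 SA2 had 1, and RPE-1 SA1 had 0, for which the one-sided 95% limit is 3 counts. No peak in a window was shown to lie in a known hypersensitive site or enhancer.

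Peak density in the loci was compared with the rest of the genome in the same list. CHM13 RAD21 had 7 peaks in the alpha-globin locus, 31.1 per Mb against 25.3 per Mb over the genome, a ratio of 1.23 (conditional exact interval 0.494 to 2.53). CHM13 SA1 had 4 and SA2 had 5, with ratios of 1.36 (0.370 to 3.48) and 1.46 (0.474 to 3.40). In the beta-globin locus the counts were 5, 3 and 4 for RAD21, SA1 and SA2, with ratios of 0.807 (0.262 to 1.88), 0.936 (0.193 to 2.74) and 1.07 (0.292 to 2.75). All 6 CHM13 intervals included 1, so no departure from the genome was detectable with so few peaks.

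In RPE-1 the alpha-globin locus held 5 RAD21 peaks, 22.2 per Mb against 5.13 per Mb, a ratio of 4.33 (1.41 to 10.1). This was the only one of the 12 ratios whose interval lay above 1. The intervals were not adjusted for their number. SA1 and SA2 had 1 and 2 peaks there, with ratios of 1.21 (0.0306 to 6.74) and 4.05 (0.491 to 14.6). The beta-globin locus had 2 peaks of each subunit, and its ratios for RAD21, SA1 and SA2 were 1.59 (0.193 to 5.76), 2.22 (0.269 to 8.04) and 3.73 (0.451 to 13.5). Set directly against each other, the loci did not differ beyond counting error in any list: the alpha to beta density ratio ranged from 0.544 (0.00921 to 10.4) for RPE-1 SA1 to 2.72 (0.445 to 28.5) for RPE-1 RAD21.

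**Figure D3:**
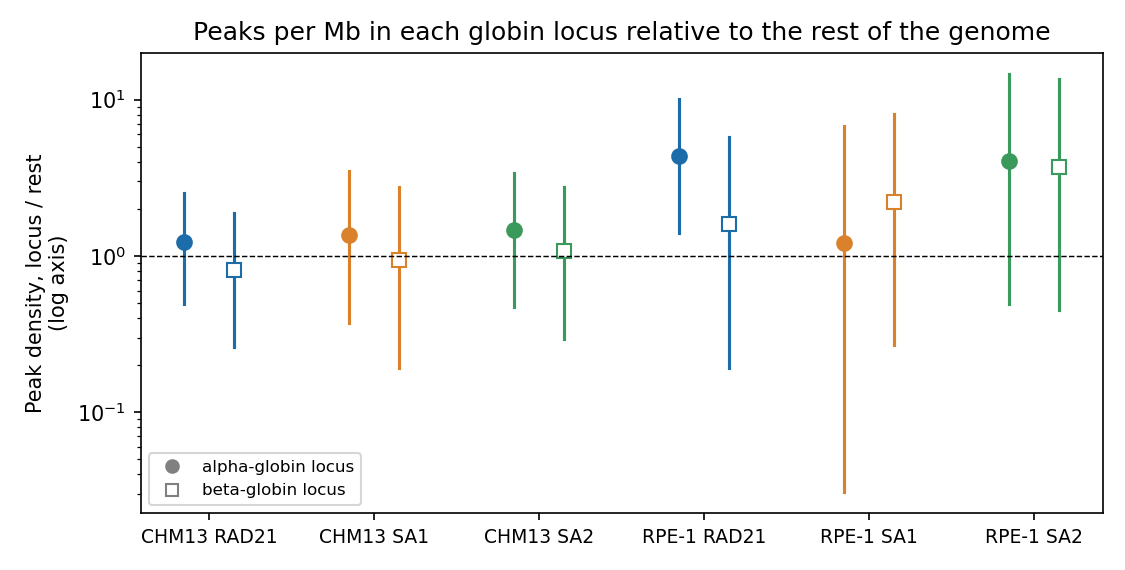
Ratio of peaks per Mb in each globin locus to the rest of the genome for each list, on a log axis, with filled circles for the alpha-globin locus, open squares for the beta-globin locus and bars for 95% conditional exact intervals. The bar of RPE-1 RAD21 in the alpha-globin locus, from 1.41 to 10.1, is the only one that does not cross the dashed line at 1.

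The lines were next compared peak by peak. Every RPE-1 peak in the loci lay wholly inside a CHM13 peak of the same subunit, which held for 7 of 7 RAD21 peaks, 3 of 3 SA1 peaks and 4 of 4 SA2 peaks. Over the genome, 95% of RPE-1 RAD21, 95.4% of SA1 and 97.5% of SA2 peaks lay wholly inside a CHM13 peak, and 97.1%, 97.5% and 98.5% overlapped one by at least 1 bp, so the shares in the loci were near the background. In the other direction, 7 of 12 CHM13 RAD21 peaks overlapped an RPE-1 peak, 58.3% (Wilson interval 32.0% to 80.7%) beside 19.5% of all CHM13 RAD21 peaks. The share was 5 of 7 in the alpha-globin locus and 2 of 5 in the beta-globin locus. For SA1 it was 3 of 7 (42.9%, 15.8% to 75.0%) beside 27.2%, and for SA2 4 of 9 (44.4%, 18.9% to 73.3%) beside 14.2%. The genome share lay outside the interval for RAD21 and SA2 and inside it for SA1. By locus, the RAD21 interval excluded it in the alpha-globin locus (35.9% to 91.8%) but not in the beta-globin locus (11.8% to 76.9%). For SA2 it was excluded in the beta-globin locus (15.0% to 85.0%) but not in the alpha-globin locus (11.8% to 76.9%). The intervals were not adjusted for their number, and the subunits share sites, so the shares are not separate observations. Since every RPE-1 peak in the loci lay inside a CHM13 peak, the shares also follow from the peak counts of both lines. They are therefore not separate from the density ratios.

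Counted by site, 3 of 12 were present in all 6 lists (25%, 8.89% to 53.2%) beside 6.18% of the sites of the genome. These were the RHBDF1 intron site and the pair around the beta-like genes. CHM13 peaks without any RPE-1 peak made up 5 of 12 sites (41.7%, 19.3% to 68.0%) beside 77.6%, and 0 of 12 (0% to 24.2%) had an RPE-1 peak without a CHM13 peak, beside 0.618%. The CHM13 RAD21 list was the only one with a peak at 2 of 12 sites, the FAM234A site and the one nearest HBE1, beside 35.7%. These site shares rest on the same peaks as the overlap shares above.

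**Figure D4:**
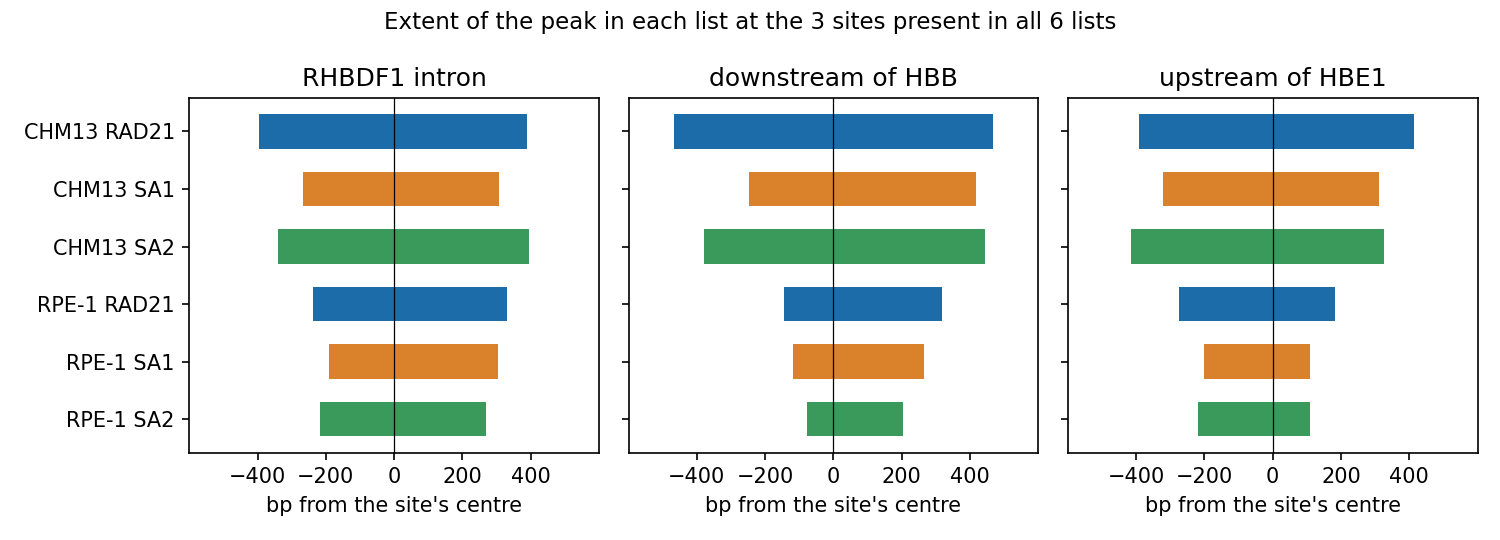
Extent in bp of the peak of each list around the centre of the 3 sites found in all 6 lists. At the HBB downstream site the bars run from 937 bp in CHM13 RAD21 to 279 bp in RPE-1 SA2, and in all 3 panels each RPE-1 bar lies within the CHM13 bar of the same colour.

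Subunits were then compared within each line. SA1 and SA2 are alternative accessory subunits that bind to RAD21, which is common to both forms of cohesin. In CHM13, every SA1 peak (7 of 7) and every SA2 peak (9 of 9) in the loci overlapped a RAD21 peak, beside 94.6% and 96.9% of those lists. Of the 12 CHM13 RAD21 peaks, 7 overlapped SA1 (58.3%, 32.0% to 80.7%) and 9 overlapped SA2 (75.0%, 46.8% to 91.1%), beside 48.1% and 57.2%. Both genome shares lay within the intervals.

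In RPE-1, all SA1 peaks (3 of 3) and all SA2 peaks (4 of 4) overlapped RAD21, beside 78.7% and 88.0%. The site 0.0835 kb past the upstream edge of the beta-globin locus, outside these counts, had SA1 and SA2 without RAD21 in RPE-1. Of the 7 RPE-1 RAD21 peaks, 3 overlapped SA1 (42.9%, 15.8% to 75.0%) beside 56.3%, and 4 overlapped SA2 (57.1%, 25% to 84.2%) beside 37.6%. The loci gave different counts, since both RAD21 peaks of the beta-globin locus had SA1 and SA2 and of the 5 in the alpha-globin locus 1 had SA1 and 2 had SA2. With so few peaks, shares of 20.0% (3.62% to 62.4%) and 100% (34.2% to 100%) for SA1 had overlapping intervals.

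The interval without peaks around the beta-like genes was nearly the same in 5 lists. It measured 85.8 kb for CHM13 SA1, 85.6 kb for CHM13 SA2, and 85.9, 86.0 and 86.1 kb for RAD21, SA1 and SA2 in RPE-1. In CHM13 RAD21 it was 75.2 kb, shortened by the site 10.9 kb upstream of HBE1. In CHM13, 11.1% of gaps between neighbouring RAD21 peaks were at least as long, 24.4% for SA1 and 19.2% for SA2. The shares in RPE-1 were 49.9%, 65.6% and 74.1%. Median gaps for RAD21, SA1 and SA2 were 14.5, 36.2 and 29.1 kb in CHM13 and 85.7, 146 and 208 kb in RPE-1. The intervals were longer than the median gap in the CHM13 lists, and near or below it in the RPE-1 lists. An interval that holds the 44.5 kb span of the listed genes without a peak must exceed those CHM13 medians. A gap picked because it covers a given region also tends to be long among all gaps. No conclusion is therefore drawn from these shares.

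Around the alpha-like genes the interval depended on the subunit. RAD21 left 62.9 kb free in CHM13 and 63.2 kb in RPE-1, from the third NPRL3 site to the HBQ1 site. SA1 and SA2 both left 73.7 kb free in CHM13. In RPE-1 they had no peak at the HBQ1 site, and the intervals reached 296 kb for SA1 and 255 kb for SA2. Of the gaps in these RPE-1 lists, 25.6% and 44% were at least as long. The share was 58.4% for RPE-1 RAD21, and in the CHM13 lists it was 14% (RAD21), 28.9% (SA1) and 22.9% (SA2). The same limit holds, since these gaps were also picked because they cover the genes.

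Distance from each gene start to the edge of the nearest peak placed the alpha chain genes closest. HBA1 lay 4.45 kb from a CHM13 RAD21 peak, 4.52 kb from SA1 and 4.57 kb from SA2, and 4.66 kb from RPE-1 RAD21, whereas its nearest SA1 and SA2 peaks in RPE-1 were 111 and 69.3 kb away. HBA2, which encodes the same protein, was at 8.26 to 8.46 kb in those first 4 lists and at 107 and 65.5 kb in the last pair. HBZ was at 28.5 to 28.7 kb, and at 86.5 and 45.3 kb in RPE-1 SA1 and SA2. All 3 therefore depended on the HBQ1 site, which lacks SA1 and SA2 peaks in RPE-1. HBQ1 itself started 0.675 kb from the CHM13 RAD21 peak.

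The beta-like genes varied less between lists. HBB, the gene altered in sickle cell disease, was at 21.7 to 21.9 kb, and HBD, its weakly expressed neighbour, at 29.1 to 29.3 kb. HBE1 was at 10.6 kb in CHM13 RAD21 and at 21.1 to 21.3 kb in the other lists. The gamma genes, HBG2 and HBG1, in the middle of the cluster, were at 25.8 and 30.7 kb in CHM13 RAD21 and at 36.2 to 36.5 kb and 41.2 to 41.4 kb elsewhere. Thus in the 5 lists other than CHM13 RAD21 the order from nearest to farthest was HBE1, HBB, HBD, HBG2 and HBG1. In CHM13 SA1 the distances of HBE1 and HBB, 21.2 and 21.7 kb, differed by less than the 631 bp median width of a peak there, so their order rests on where a peak edge was drawn.

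Distances were also read against all protein-coding genes. In CHM13 RAD21 the median gene start was 6.68 kb from a peak, and 7 of the 8 globin genes were farther than that. The count was 6 of 8 for CHM13 SA1 and for SA2, with medians of 16.3 and 17 kb. In RPE-1, whose lists are shorter, 2, 3 and 0 of 8 were farther than medians of 36.3, 61.4 and 92.7 kb for RAD21, SA1 and SA2. A peak within 5 kb of the start was found for 1 of 8 genes, HBA1, in CHM13 RAD21, SA1 and SA2 and in RPE-1 RAD21, beside 45.8%, 28.0%, 25.6% and 13.3% of protein-coding genes. It was found for 0 of 8 in RPE-1 SA1 and SA2, beside 6.17% and 4.36%. Neighbouring globin genes share their nearest peaks, so the 8 distances are not separate observations.

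**Figure D5:**
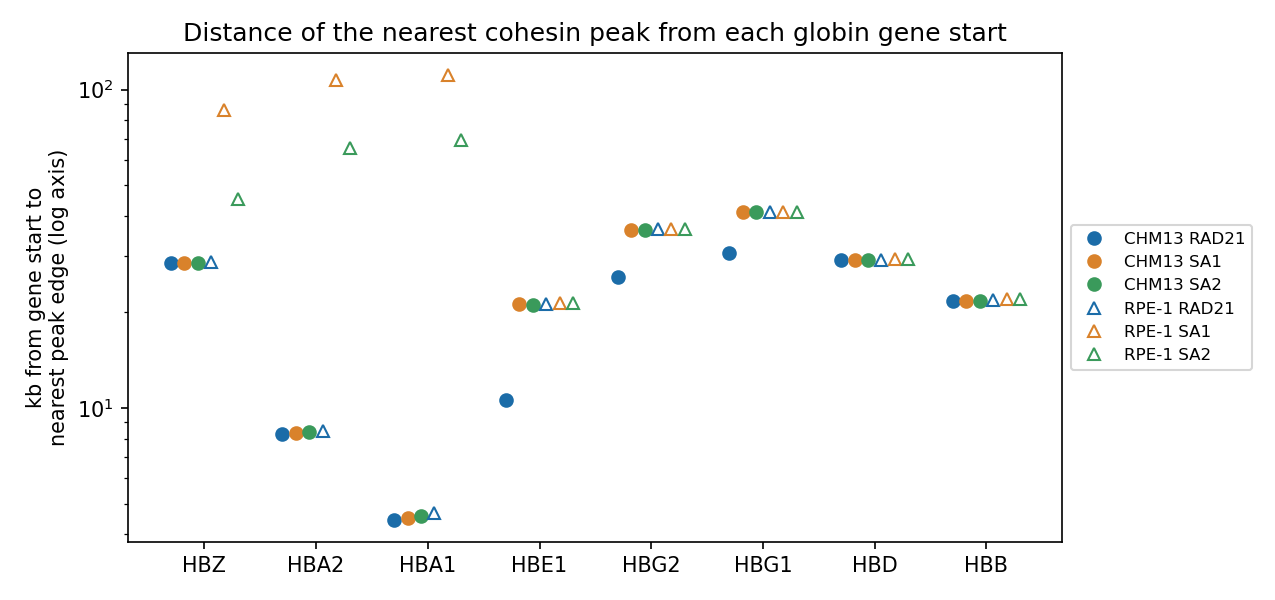
Distance in kb, on a log axis, from the start of each listed globin gene to the edge of the nearest peak, with filled circles for CHM13, open triangles for RPE-1 and colours for subunits. HBB and HBD each keep a near constant distance in all lists, while RPE-1 SA1 and SA2 stand far above the other lists at HBZ, HBA2 and HBA1.

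The CTCF core consensus was searched on both strands in the 300 bases around each site centre. It was found at 6 of 12 sites (50.0%, 25.4% to 74.6%), beside 24.2% of all sites of the genome and 1.56% of 300-base tiles. There were 4 among the 7 alpha sites and 2 among the 5 beta sites. All 3 sites present in every list held a match (interval 43.9% to 100%), beside 54.1% of such sites in the genome. All 12 sites had a CHM13 peak. A match was found at 6 of the 7 that also had an RPE-1 peak, beside 54.0% of sites with an RPE-1 peak in the genome. It was found at 0 of the 5 seen in CHM13 alone, beside 15.6% of sites with no RPE-1 peak. The HBQ1 site was the one with an RPE-1 peak and no match. That contrast between shared and CHM13-only sites depends on the limit of 1 mismatch. With 2 mismatches, a limit chosen after seeing the data, every site held a match except the one 94.4 kb upstream of HBE1. At that limit 47.3% of all sites of the genome held a match. A match describes letters and not binding, and CTCF was not measured in the files used here.

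The strand of the matches differed among sites. At the beta-globin locus, the match upstream of HBE1 (chr11:5291437-5291448, minus strand) and the one downstream of HBB (chr11:5204966-5204977, plus strand) both read towards the genes, so they faced each other across the cluster. Each had 1 mismatch to the consensus. At the alpha-globin locus the matches in the RHBDF1 intron, at the second NPRL3 site (chr16:107206-107217, no mismatch) and at the third NPRL3 site read towards the genes. The match at the first NPRL3 site (chr16:97063-97074, minus strand, no mismatch) read away from them. No match with at most 1 mismatch was found on the downstream side of the alpha-like genes. Both downstream sites held a match with 2 mismatches, and the strand of those matches was not examined.

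The width of the peaks was near that of each list. CHM13 RAD21 peaks in the loci had a median of 784 bp (422 to 1255 bp) beside 724 bp over the genome, and RPE-1 RAD21 peaks 462 bp (292 to 570 bp) beside 443 bp. SA1 and SA2 peaks had medians of 631 and 611 bp in CHM13, beside 613 and 608 bp. They measured 382 and 312 bp in RPE-1, beside 397 and 360 bp.

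Several globin genes are near-identical copies, and a read from such a stretch has more than 1 place to align. Of the 150-base stretches that start and end within a gene, 54.2% in HBA1 and 54.8% in HBA2 occurred again within the 2 loci, the only sequence searched, as did 43.5% in HBZ, 30.0% in HBG1 and 29.9% in HBG2. In HBB, HBD and HBE1 the share was 0%. No mapping quality filter is stated by the study, and the part of repeated sequence in the absence of peaks from the genes was not tested.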

How the data were processed

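Per the labels, samples were grouped by title into RAD21, SA1, SA2 and input of CHM13 (3 replicates each) and RPE-1 (2 each). The deposited files are peak lists whose only values are positions in bp, a unit of its own with no height or p-value. According to the methods, the authors used bwa mem for alignment, samtools to filter alignments and macs, at a q-value threshold of 0.01, to call peaks. Peaks were merged with GenomicRanges, and loci seen in fewer than 2 replicates were dropped. In RPE-1 a locus thus had to be found in both replicates, whereas in CHM13 it could be missing from a replicate. These steps are stated for CHM13 v1.0, and for hg38 they are not given in the sources used here. CHM13 chromatin was mixed with Drosophila chromatin before precipitation. Read depth is not in the lists. The supplement reports fewer reads for every RPE-1 precipitate than for the CHM13 ones, apart from a single CHM13 RAD21 replicate that was shallower than all of them. Depth scales no value here, but it can set which peaks were called.

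The 6 hg38 lists were analysed with Python 3.11.15, numpy 2.4.6, scipy 1.17.1, pandas 2.3.3 and matplotlib 3.10.9. The lists on CHM13 v1.0 were not used here, since no annotation or sequence of that build was at hand and no coordinates were converted. A peak belonged to a locus by its centre. Genes came from GENCODE 44, with gene starts and spans from canonical transcripts. Counts carry exact Poisson intervals, density ratios conditional exact intervals and shares Wilson intervals, all at 95%. Bases given as N were left out of densities. Named genes were the 8 listed, the other globin genes of the loci, NPRL3, and the genes holding or nearest to a site. The members and these choices were made with earlier results of these data known. Functions for overlap, intervals and motif search were tested on simulated data. Alternatives concerned the flanks, the locus span, joining and overlap of peaks, the denominator, the upstream windows and the motif.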

Additional observations from a re-analysis of the deposited data

How the results depend on the processing

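The lists pool their replicates, so leaving out a replicate was not possible. No paired analysis was possible because the replicate numbers in the labels are not carried by the merged lists. Of the values recomputed under the alternatives, 155 stayed close and 35 moved. Close meant within 1.5 times for a count, a length or a distance, and within the counting interval for a density ratio. The alternatives that moved a count changed the bases, peaks or letters admitted. With flanks of 50 kb the alpha-globin locus held 3, 2 and 2 peaks of RAD21, SA1 and SA2 in CHM13 and 3, 0 and 1 in RPE-1, and the beta-globin locus 3 CHM13 RAD21 and 2 CHM13 SA2 peaks. With flanks of 200 kb the alpha-globin counts were 11, 7 and 8 in CHM13 and 8, 2 and 4 in RPE-1, and the beta-globin counts 8, 6 and 7 in CHM13 and 4 for RPE-1 SA1. With GENCODE gene spans in place of canonical transcripts, the beta-globin locus held 10, 8 and 9 peaks in CHM13 and 4 for RPE-1 SA1. An upstream window of 60 kb for HBZ gave 2 peaks each for CHM13 SA1 and CHM13 SA2. Counting only RPE-1 RAD21 peaks that overlap another subunit lengthened the interval around the alpha-like genes to 255 kb. Requiring 50% overlap of both peaks left shared peaks numbering 1 (RAD21), 1 (SA1) and 0 (SA2) in the beta-globin locus, in both directions, since RPE-1 peaks are narrower. Without mismatches the CTCF core was found at 2 alpha and 0 beta sites, beside 7.19% of sites and 0.108% of tiles. With 2 mismatches, chosen after seeing the data, it was found at 7 alpha and 4 beta sites, beside 47.3% of sites and 14.7% of tiles. Against the density of the same chromosome, the CHM13 SA2 ratio of the beta-globin locus went from 1.07 to 0.999, and the other ratios stayed on their side of 1. As a share of bases covered by peaks, the CHM13 RAD21 ratio of the alpha-globin locus was 0.966 instead of 1.23, and that of RPE-1 RAD21 was 4.27.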
